A study of Homo sapiens with 6 samples.

Results

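The autophagy and lysosome genes described here were the 68 protein-coding genes, of 58735 genes in the table, whose symbols begin with ATG and a digit, ATP6V0, ATP6V1, GABARAP or MAP1LC3, or are a cathepsin (CTS and 1 letter) or a LAMP (LAMP and a digit). They comprised 18 ATG genes, 7 genes of the ATG8 family, 9 V0 and 13 V1 subunits of the vacuolar ATPase, 15 cathepsins and 4 LAMP genes. The remaining 2, ATP6V1FNB and ATP6V1G2-DDX39B, are a neighbour of ATP6V1F and a readthrough transcript, and were kept apart from the subunits. The rule reads symbols and biotype and no expression value, although it was written with earlier results of these data known.

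The cells were PC9-BrM3, a line with a high propensity for brain metastasis derived from the lung adenocarcinoma line PC9, in routine culture without drug. In 3 libraries AKR1B10, an aldo-keto reductase, was silenced with shRNA vector 1 (shAKR1B10). In the other 3 the cells carried a negative control shRNA (shNC), which the labels call wild type, so both groups had been through the shRNA procedure and no untransfected cells were among them. The comparison rests on 1 cell line and 1 targeting vector, and the labels do not say whether the libraries of a group came from separate cultures, so the p-values measure the spread between libraries, which may be technical.

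AKR1B10 was at 108, 107 and 110 FPKM (sequenced fragments scaled by gene length and library size) in shAKR1B10 and at 799, 775 and 772 FPKM in shNC, so 13.9% of the shNC mean was left (log2 fold change -2.85, adjusted p = 1.59e-07). Reads on genes numbered 16964504 to 18709028 in a library. Of 11 lung epithelial markers, 7 had a mean FPKM of at least 1, with a summed level of 3240 to 3328 FPKM in shAKR1B10 and 3060 to 3434 FPKM in shNC. The defining lung lineage markers NKX2-1, NAPSA, SFTPB and SFTPC were below 1 FPKM in every library, so the files show an epithelial line without these markers. None of 9 leukocyte markers reached a mean of 1 FPKM. Their sums were 1.47 to 1.71 FPKM in shAKR1B10 and 1.52 to 1.83 FPKM in shNC. This bears on the cathepsins and on LAMP3, genes that immune cells also use. Of 6 fibroblast, 4 endothelial and 5 glial and neuronal markers, 1 each reached a mean of 1 FPKM (COL1A1, CDH5 and MBP). The sums of these lists did not overlap between the groups. Fibroblast sums were 1.199 to 1.367 FPKM in shAKR1B10 and 2.028 to 2.077 FPKM in shNC. Endothelial sums were 2.104 to 2.373 against 1.523 to 1.791 FPKM, and glial and neuronal sums 2.637 to 2.757 against 3.472 to 3.678 FPKM. The cause was not tested.

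Autophagy wraps cytoplasm and organelles in a membrane sac, the autophagosome, and delivers them to the lysosome. The ULK1 kinase complex starts the process, a phosphatidylinositol 3-kinase complex marks the site, ATG9 vesicles and ATG2 lipid transfer proteins feed the growing membrane, and a conjugation system of ATG proteins attaches the ubiquitin-like ATG8 proteins (LC3 and GABARAP) to it. The lysosome is made acidic by the vacuolar ATPase (V-ATPase), whose V1 sector burns ATP in the cytosol to turn the V0 sector, the proton channel in the membrane. Cathepsins are the proteases that work in this acid, and LAMP proteins coat the lysosomal membrane. Transcription of many of these genes is known to respond to TFEB and its relatives TFE3 and MITF, which bind a motif called the CLEAR element.

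Of the 68 genes, 50 averaged 1 FPKM or more across the libraries and were tested. Calls required both an adjusted p under 0.05 and a log2 fold change of shAKR1B10 over shNC beyond 0.5 in either direction. By this rule 6 of the 50 were lower in shAKR1B10 (ATG13, ATG4C, ATG5, CTSC, CTSV and LAMP3) and 5 were higher (ATG14, ATG9B, ATP6V1G1, CTSH and CTSL), where 7.45% of the 13150 genes tested were called lower and 5.83% higher. Among the protein-coding genes tested the shares were 8.01% and 4.85%. LAMP3 entered the test only through shNC, with means of 0.774 FPKM in shAKR1B10 and 1.44 FPKM in shNC. The calls fell on both sides within the ATG genes, within the cathepsins and within neither V-ATPase sector, and none of the 50 moved by a log2 fold change of 1.

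Without the fold threshold, 9 of the 50 genes had an adjusted p under 0.05 and were lower, beside 23.1% of all genes tested, and 17 were higher, beside 19.4%. Of the 10777 protein-coding genes tested, which is the biotype of all members, 2863 were lower and 2190 higher. With libraries scaled to equal upper quartiles the split of the 50 became 7 lower and 23 higher, beside 18.2% and 24.9% of all genes tested with that scaling. The 3 libraries of shAKR1B10 lay entirely below those of shNC for 11 genes and entirely above for 22, where all genes tested gave 29.2% and 25.5%. The median log2 fold change was 0.09 over the 50 genes and -0.01 over all genes tested. Only 5 of the 17 higher genes passed the fold threshold, so the larger share on that side was made mostly of small differences, as the plot of fold changes shows. In such bulk RNA, fewer cells that express a gene and less RNA of it per cell cannot be told apart.

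**Figure D1:**
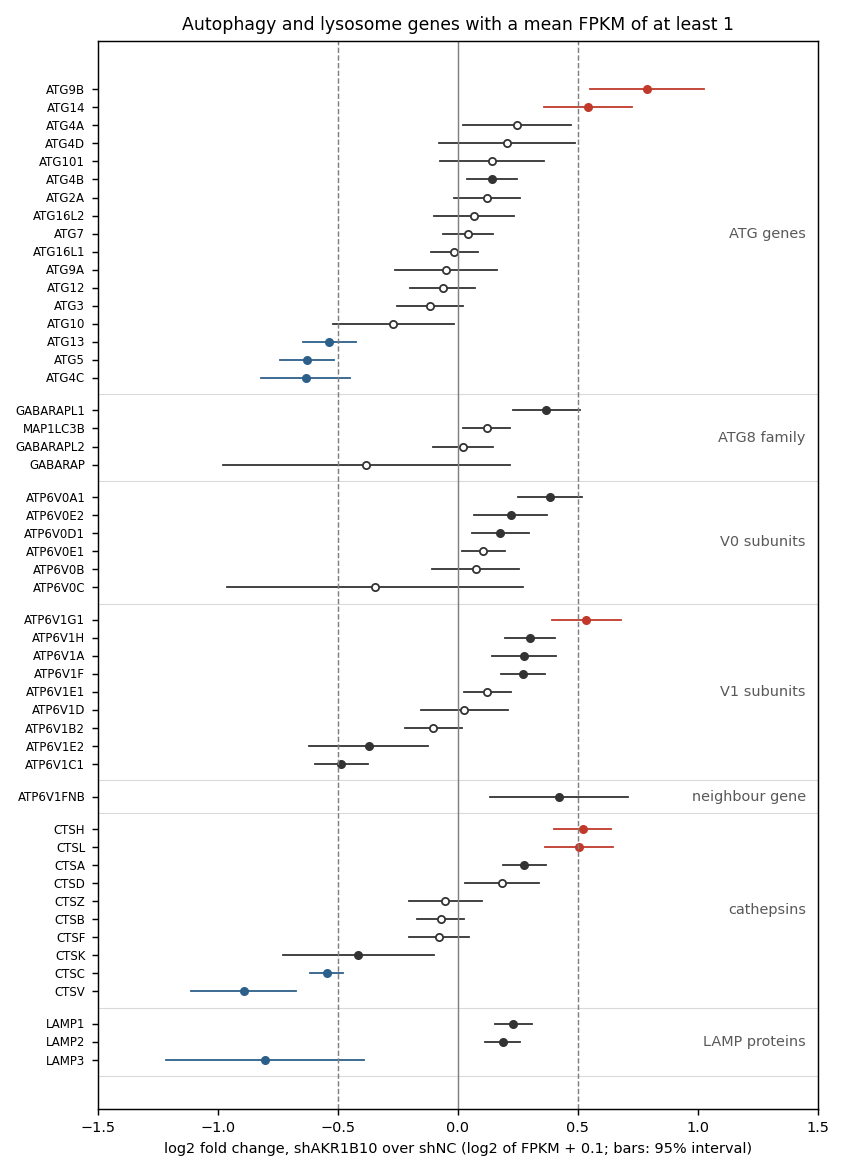
Log2 fold change of shAKR1B10 over shNC for the 50 genes tested (horizontal axis, on the scale of log2 of FPKM + 0.1), grouped by role on the vertical axis, with points for the estimate and bars for the 95% interval. Filled points have an adjusted p under 0.05, red and blue mark the 5 genes called higher and the 6 called lower, and dashed lines stand at 0.5 in either direction; the V-ATPase rows lie mostly to the right of 0, while ATG genes and cathepsins reach out on both sides.

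The promoter sequences of 51 of the 68 genes were at hand, from RefSeq (GRCh38.p14), each with 250 bases before and 50 after the start site. The core of the CLEAR element, TCACGTGA, and the E-box CACGTG within it read the same on both strands, so each search covers both. TCACGTGA stood in 5 of the 51 promoters (9.8%), beside 1.01% of all 27305 promoters. Among members tested it stood in 5 of 38 (13.2%), beside 1.98% of the promoters of all genes tested. CACGTG, which counts those as well, stood in 10 of the 51 (19.6%), beside 7.27% of all promoters, and in 10 of the 38 tested (26.3%), beside 9.95%. Of the genes with TCACGTGA, ATP6V1G1, ATP6V0D1, CTSA and LAMP1, were among the members with an adjusted p under 0.05 and a higher level in shAKR1B10 (4 of 13 such promoters, 30.8%), and the fifth, ATG3, was not. Of the 9 members lower at an adjusted p under 0.05, ATP6V1C1, ATP6V1E2, CTSK and LAMP3 had no promoter here. None of the 5 promoters of lower members at hand held either motif. Over all genes tested with an adjusted p under 0.05, TCACGTGA stood in 2.32% of the promoters of higher and 2.2% of those of lower genes. CACGTG stood in 8.76% and 11.2% of them. Stretches are shown for ATP6V1G1, ATP6V0D1, CTSA and LAMP1 around TCACGTGA, and for ATG14 and CTSF around CACGTG. The motif is in capitals and on the strand of the gene. Other matches, such as those in ATG3, ATP6V0B, ATP6V0E2 and CTSD, are not shown.
ATP6V1G1: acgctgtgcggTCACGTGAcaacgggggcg
ATP6V0D1: cccccttatggTCACGTGAggcgcttgcgc
CTSA: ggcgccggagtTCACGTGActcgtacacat
LAMP1: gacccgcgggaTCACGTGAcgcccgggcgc
ATG14: aaacaaaatccCACGTGactggctctcc
CTSF: cctgcgcgcccCACGTGcctcctgtaaa

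They lie at chr9:114587699-114587728 (plus strand), chr16:67481199-67481228 (minus strand), chr20:45891298-45891327 (plus strand), chr13:113297199-113297228 (plus strand), chr14:55411835-55411862 (minus strand) and chr11:66568641-66568668 (minus strand). In ATP6V1G1 and ATP6V0D1 the motif ran from base -59 to -52 and from -60 to -53 before the start site, almost the same place. LAMP1 had it from -29 to -22, again across the start site, and CACGTG at 4 more places. ATG14, the only called ATG gene with a match, and CTSF, whose libraries overlapped between the groups, carry the E-box without the longer core. A match of letters is a description of the sequence and not a bound site.

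The genes that start an autophagosome differed in direction. ATG13 (ENSG00000175224, chromosome 11, 46617527 to 46674818), the subunit that links the ULK1 kinase to its scaffold, was at 12.1, 12.4 and 11.3 FPKM in shAKR1B10 and at 17.7, 17.3 and 16.9 FPKM in shNC. Every shAKR1B10 library lay below every shNC library, with a log2 fold change of -0.54 (SE 0.0458, adjusted p = 0.000235). Its partner ATG101 was at 5.73, 6.79 and 6.56 FPKM against 5.14, 5.99 and 6.13 FPKM and overlapped between the groups (0.14, 95% interval -0.08 to 0.36, and 0.06 without shNC library 1). ATG14 (ENSG00000126775, chromosome 14, 55366392 to 55411858), which directs the phosphatidylinositol 3-kinase complex to autophagy, went the other way, with 9.31, 8.97 and 9.72 FPKM against 6.09, 5.95 and 7.15 FPKM (0.54, SE 0.0769, adjusted p = 0.0019). The ratio of ATG14 to ATG13 within a library was 0.769, 0.724 and 0.861 in shAKR1B10 and 0.344, 0.343 and 0.423 in shNC. Both fold changes stand close to the threshold: ATG13 came to -0.496 without shAKR1B10 library 3 (and to -0.498 with TPM and -0.477 with upper quartile scaling), and ATG14 to 0.493 without shNC library 2 (and to 0.485 with a pseudocount of 1 FPKM), all with adjusted p under 0.05.

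ATG5 and ATG4C were the other ATG genes called lower. ATG5 (ENSG00000057663, chromosome 6, 106045423 to 106325791), which is joined to ATG12 and lets the conjugate place ATG8 proteins on the membrane, was at 4.79, 4.53 and 4.49 FPKM against 7.34, 7.05 and 7.12 FPKM. That is a log2 fold change of -0.63 (SE 0.0465, adjusted p = 0.000129), with narrow and separate groups. Of the same conjugation system, ATG12, ATG16L1, ATG7, ATG3 and ATG10 were not called. ATG12 itself gave -0.06 (95% interval -0.20 to 0.07), ATG16L1, which completes the complex, -0.02 (-0.11 to 0.08), and the E1-like enzyme ATG7 0.04 (-0.06 to 0.15). ATG3, the E2-like enzyme for ATG8 proteins, gave -0.12 (-0.25 to 0.02), and -0.17 (adjusted p = 0.0491) without shAKR1B10 library 2. ATG10, the E2-like enzyme for ATG12, was lower in every shAKR1B10 library, at 1.33, 1.38 and 1.27 FPKM against 1.60, 1.67 and 1.59 FPKM, without passing the test (-0.27, adjusted p = 0.0832, but 0.049 with voom and 0.0278 among protein-coding genes only). ATG10 shares 6.86% of its exonic bases with RPS23 on the opposite strand, a gene at a mean of 75.5 FPKM, and whether the counting used the strand is not stated.

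The ATG4 proteases, which trim ATG8 proteins before conjugation and release them afterwards, split by member. ATG4C (ENSG00000125703, chromosome 1, 62784135 to 62865513) was at 3.40, 3.28 and 2.83 FPKM against 4.91, 4.91 and 5.07 FPKM, a log2 fold change of -0.63 (SE 0.0771, adjusted p = 0.000992). ATG4B, the most abundant of the ATG genes by the mean of all 6 libraries (in shNC alone ATG13 was higher), was at 16.2, 15.6 and 15.0 FPKM against 14.0, 13.9 and 14.6 FPKM, a small and separate difference (0.14, adjusted p = 0.037). The adjusted p of ATG4B became 0.111, 0.0926, 0.0827 and 0.107 without shAKR1B10 library 1 or 2 and without shNC library 1 or 2. ATG4A gave 0.25 (adjusted p = 0.0743), passed 0.05 with TPM (0.0425), upper quartile scaling (0.0382), voom (0.0376) and protein-coding genes only (0.0354), and came to 0.15 without shNC library 2. ATG4D gave 0.20 (adjusted p = 0.212) and came to 0.08 without shNC library 1. The ratio of ATG4B to ATG4C was 4.77, 4.77 and 5.30 in shAKR1B10 and 2.85, 2.83 and 2.88 in shNC.

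The ATG9 scramblases, which even out lipids across the growing membrane, also differed from each other. ATG9B (ENSG00000181652, chromosome 7, 151012209 to 151024499) had the highest fold change of the 50 genes, at 2.65, 2.41 and 2.84 FPKM against 1.58, 1.47 and 1.40 FPKM (0.79, SE 0.0989, adjusted p = 0.00112). These levels rest on 278 to 322 reads in shAKR1B10 and 159 to 185 reads in shNC. ATG9A, the more abundant relative, was at 9.02, 7.84 and 7.81 FPKM against 7.63, 8.70 and 9.26 FPKM, with mixed groups (-0.05, 95% interval -0.26 to 0.16). ATG9B shares 12.3% of its exonic bases with NOS3 on the opposite strand, which had a mean of 0.277 FPKM, and ATG9A shares 38.8% with AC068946.2 on its own strand. The lipid transfer protein ATG2A was at 14.0, 13.8 and 15.0 FPKM against 12.9, 12.4 and 14.0 FPKM and did not pass the test (0.12, adjusted p = 0.14, but 0.18 and 0.0412 with upper quartile scaling). Over the 17 ATG genes tested, 3 were lower and 3 higher at an adjusted p under 0.05, no more than the 23.1% and 19.4% of all genes tested. The summed level was 128 ± 1.22 FPKM in shAKR1B10 and 129 ± 3.99 FPKM in shNC (SD, n = 3).

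**Figure D2:**
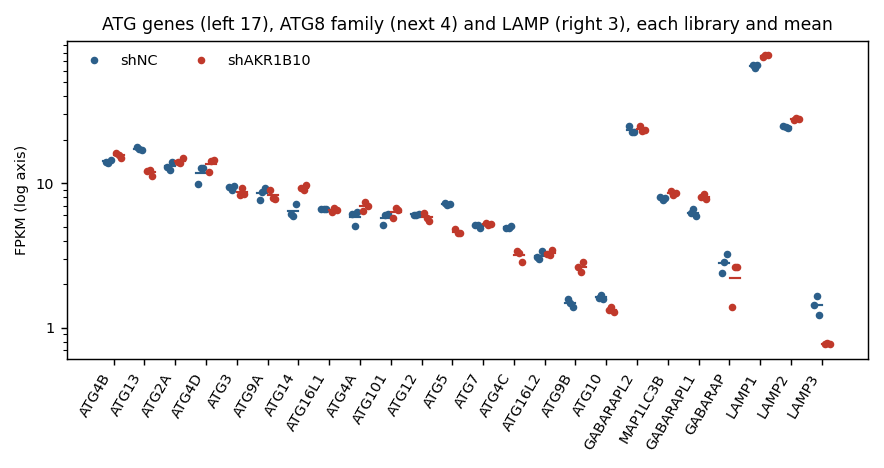
FPKM on a log axis for the 17 ATG genes, 4 ATG8 genes and 3 LAMP genes tested, 1 point per library (blue for shNC, red for shAKR1B10) with a bar at each group mean. The colours separate most for ATG13, ATG14, ATG5, ATG4C, ATG9B and LAMP3, and the shAKR1B10 library of GABARAP at 1.40 FPKM stands below the other 5.

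In the ATG8 family, whose members tether cargo and carry it into the autophagosome, none of the 4 tested was called by limma or voom. At an unadjusted p under 0.05 in limma, 2 were higher and 0 lower, beside 3124 and 3590 of the 13150 genes tested. GABARAPL2 was the most abundant, at 24.8, 23.0 and 23.5 FPKM in shAKR1B10 and 24.9, 22.7 and 22.6 FPKM in shNC, and it did not differ beyond its spread (0.02, 95% interval -0.10 to 0.14). MAP1LC3B, which encodes the LC3 protein most used as a marker of autophagosomes, was at 8.83, 8.35 and 8.60 FPKM against 8.04, 7.70 and 7.94 FPKM. Its groups did not overlap, but the difference of 0.12 fell short of the threshold (adjusted p = 0.0531, but 0.0201 with TPM and 0.016 with upper quartile scaling). GABARAPL1 was the member with the clearest difference, at 7.99, 8.46 and 7.73 FPKM against 6.17, 6.60 and 5.90 FPKM (0.37, SE 0.0583, adjusted p = 0.00303).

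GABARAP was at 1.40, 2.62 and 2.61 FPKM against 2.38, 2.84 and 3.24 FPKM, on 56 reads in shAKR1B10 library 1 and between 99 and 134 in the others, and its interval ran from -0.98 to 0.22. Its log2 difference of -0.38 came to -0.10 without shAKR1B10 library 1. It shares 55.7% of its exonic bases with other genes, so its level in this table is uncertain. MAP1LC3B2, a near-identical copy of MAP1LC3B on another chromosome, had 16 to 29 reads in a library, and reads that fit both copies could be placed on either. MAP1LC3A had 0 to 4 reads and MAP1LC3C 2 to 9 reads in a library, below the level at which the groups could be compared.

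Most V-ATPase genes lay on the higher side. Of the 15 subunit genes tested, 7 were higher and 2 lower in shAKR1B10 at an adjusted p under 0.05, beside 19.4% and 23.1% of all genes tested. The libraries lay entirely above shNC for 9 and entirely below for 2, beside 25.5% and 29.2%, and the median log2 fold change was 0.12. Only ATP6V1G1 passed the fold threshold. The summed level of the V0 and V1 subunits was 425, 410 and 419 FPKM in shAKR1B10 and 360, 367 and 361 FPKM in shNC, 418 ± 7.72 against 363 ± 3.94 (SD, n = 3), without overlap. An exact two-sided permutation test of 3 libraries against 3 cannot go below p = 0.10, so no p is given for the sum. The sum was 274 ± 5.05 against 229 ± 2.88 FPKM for V1 and 144 ± 4.01 against 134 ± 2.69 FPKM for V0. The gap in V1 was carried mainly by the abundant ATP6V1G1 (means of 93.9 against 64.7 FPKM) and ATP6V1F (94.1 against 78.0 FPKM).

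In the V1 sector, ATP6V1G1 (ENSG00000136888, chromosome 9, 114587746 to 114598373), part of the stalk that holds the catalytic head still, was at 99.9, 93.5 and 88.2 FPKM in shAKR1B10 and 64.9, 68.2 and 61.1 FPKM in shNC. The groups were well apart, and the log2 fold change was 0.54 (SE 0.0596, adjusted p = 0.000683). It came to 0.490 without shAKR1B10 library 1 and to 0.495 without shNC library 3, just under the threshold, with adjusted p of 0.00293 and 0.00281. ATP6V1F, a subunit of the turning shaft and the most abundant V-ATPase transcript, was at 93.2, 91.4 and 97.6 FPKM against 75.4, 78.5 and 80.1 FPKM (0.27, adjusted p = 0.00198). The catalytic subunit ATP6V1A (15.5, 14.9 and 13.9 against 11.7, 11.9 and 12.9 FPKM) and the regulatory subunit ATP6V1H (7.65, 7.76 and 7.66 against 6.16, 6.48 and 6.04 FPKM) were higher by 0.28 and 0.30, with adjusted p of 0.00838 and 0.00197. These subunits belong to different pieces of the sector, the stalk, the shaft and the catalytic head among them.

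Other V1 subunits went against this. ATP6V1C1, which joins the V1 stalk to V0, was at 13.6, 14.4 and 13.4 FPKM against 20.3, 18.9 and 18.9 FPKM. Its log2 fold change of -0.49 (SE 0.046, adjusted p = 0.000358) lay just inside the threshold, and it reached -0.518, -0.504 and -0.503 without shAKR1B10 library 2, shNC library 2 or shNC library 3, where it was called. ATP6V1E2, the minor form of the E subunit of the stalk, was at 1.55, 1.53 and 1.63 FPKM against 2.19, 2.17 and 1.85 FPKM (-0.37, adjusted p = 0.0277), and its adjusted p was 0.0528 to 0.0879 without any 1 library other than shNC library 3. The major form ATP6V1E1 leaned upward, at 28.2, 25.9 and 27.1 FPKM against 25.4, 24.4 and 24.8 FPKM (0.12, adjusted p = 0.0504, and 0.0155 to 0.0491 with a pseudocount of 1, a mean of at least 5 FPKM, TPM, upper quartile scaling, voom, protein-coding genes only or without shAKR1B10 library 2), so the ratio of the major to the minor form was 18.2, 16.9 and 16.6 in shAKR1B10 and 11.6, 11.3 and 13.4 in shNC. ATP6V1B2, the widely expressed B subunit of the head, gave -0.10 (95% interval -0.22 to 0.02), and ATP6V1D, of the shaft, 0.03 (-0.16 to 0.21).

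In the V0 sector, ATP6V0A1, the large subunit that helps set which membrane the pump goes to, had the highest fold change, at 6.08, 6.75 and 6.17 FPKM against 4.88, 4.68 and 4.92 FPKM (0.38, SE 0.0556, adjusted p = 0.00208). ATP6V0D1, which couples the shaft to the proton ring, was at 13.0, 12.4 and 13.5 FPKM against 10.9, 11.6 and 11.9 FPKM (0.18, adjusted p = 0.0283), and ATP6V0E2 at 9.46, 9.20 and 10.1 FPKM against 7.60, 8.57 and 8.54 FPKM (0.22, adjusted p = 0.0315). Both are small differences that lose significance when a library is left out. The adjusted p of ATP6V0D1 was 0.0761, 0.0871, 0.0666 and 0.0617 without shAKR1B10 library 1 or 3 or shNC library 1 or 2, and that of ATP6V0E2 0.0696, 0.0937 and 0.0623 without shAKR1B10 library 1 or 3 or shNC library 1. ATP6V0E1, the most abundant V0 transcript, was at 77.7, 73.4 and 76.2 FPKM against 72.0, 71.4 and 67.6 FPKM (0.11, adjusted p = 0.0629, but 0.0239 with TPM, 0.0191 with upper quartile scaling and 0.0476 among protein-coding genes only).

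The genes of the proton ring did not pass the test. ATP6V0B was at 33.0, 29.1 and 32.3 FPKM against 27.0, 31.4 and 31.3 FPKM, with overlap (0.07, 95% interval -0.11 to 0.26), and its value without shNC library 1 was 0.0027. ATP6V0C, the main ring subunit, was at 3.93, 6.91 and 7.11 FPKM against 6.62, 6.36 and 9.51 FPKM, and its interval ran from -0.96 to 0.27. The shAKR1B10 library at 3.93 FPKM and the shNC library at 9.51 FPKM both stood apart, and the log2 difference of -0.34 came to -0.07 without the first and -0.16 without the second. ATP6V0C shares 72.1% of its exonic bases with other genes, among them the readthrough gene AC093525.2, so its true level may not be the one listed.

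**Figure D3:**
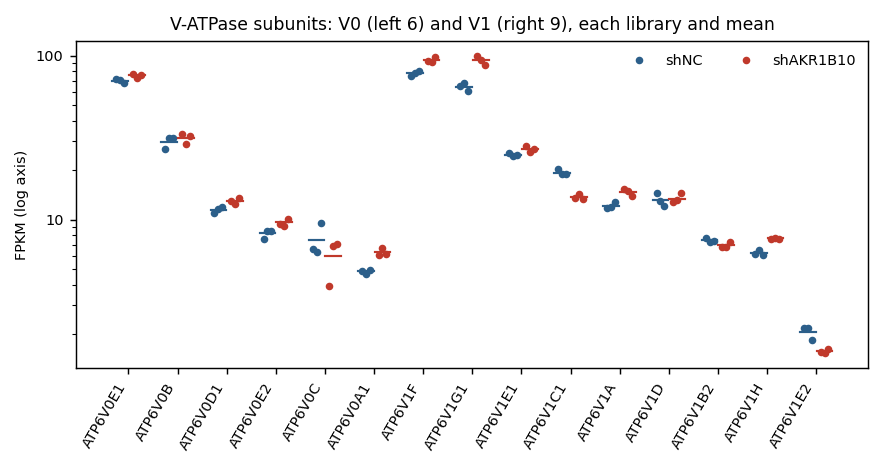
FPKM on a log axis for the 6 V0 and 9 V1 subunit genes tested, 1 point per library (blue for shNC, red for shAKR1B10) with a bar at each group mean. Red lies above blue for most subunits, most clearly for ATP6V1G1 at 88.2 to 99.9 against 61.1 to 68.2 FPKM, and below it for ATP6V1C1 and ATP6V1E2.

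The cathepsins differed by member while their sum did not separate the groups. The summed level was 361, 356 and 356 FPKM in shAKR1B10 and 342, 359 and 370 FPKM in shNC, with overlap, while 3 of the 10 tested were lower and 3 higher at an adjusted p under 0.05, not far from the 23.1% and 19.4% of all genes tested. CTSL and CTSV, near relatives that encode cathepsins L and V, went in opposite directions. CTSV (ENSG00000136943, chromosome 9, 97029679 to 97039643) was at 3.32, 2.82 and 2.89 FPKM in shAKR1B10 and 5.72, 6.18 and 5.14 FPKM in shNC. At -0.89 (SE 0.0922, adjusted p = 0.000515) it had the lowest fold change of the 50 genes. CTSL (ENSG00000135047, chromosome 9, 87725519 to 87731393) was at 19.7, 21.9 and 20.1 FPKM against 13.6, 14.6 and 15.2 FPKM (0.51, SE 0.0591, adjusted p = 0.000836). The ratio of CTSL to CTSV was 5.92, 7.79 and 6.97 in shAKR1B10 and 2.38, 2.36 and 2.96 in shNC.

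A similar divergence was seen between CTSH and CTSC, exopeptidases that trim the ends of proteins and activate other enzymes. CTSC (ENSG00000109861, chromosome 11, 88293592 to 88337787), which activates granule serine proteases in immune cells, was at 54.5, 54.6 and 53.0 FPKM against 80.4, 78.0 and 78.6 FPKM. This was the most significant member (-0.55, SE 0.0291, adjusted p = 3.73e-05), although with upper quartile scaling it came to -0.49. CTSH (ENSG00000103811, chromosome 15, 78921058 to 78949574), an aminopeptidase that also processes surfactant protein in the lung, was at 36.0, 34.9 and 33.2 FPKM against 22.8, 24.8 and 25.0 FPKM (0.52, SE 0.0497, adjusted p = 0.000371). Both CTSL and CTSH were near the threshold. CTSL came to 0.460 without shAKR1B10 library 2, 0.463 without shNC library 1 and 0.481 with a pseudocount of 1 FPKM, and CTSH to 0.49 without shAKR1B10 library 1 and 0.48 without shNC library 1, each with an adjusted p under 0.05.

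CTSA, a carboxypeptidase that also protects lysosomal sialidase and galactosidase, was at 37.1, 37.1 and 37.0 FPKM against 29.2, 30.9 and 31.7 FPKM, a separate and smaller difference (0.28, adjusted p = 0.00161). CTSK, the collagen-degrading cathepsin of bone, was at 1.62, 2.20 and 1.70 FPKM against 2.43, 2.32 and 2.67 FPKM on 54 to 92 reads (-0.42, adjusted p = 0.0424). The result for CTSK was unsteady. It reached -0.54 (adjusted p = 0.0129) without shAKR1B10 library 2 and lost significance without any 1 of the other 5 libraries (adjusted p from 0.0678 to 0.121).

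The remaining cathepsins did not pass the test with all libraries at the settings used throughout. CTSD, the major aspartic protease of the lysosome, was at 86.8, 85.4 and 89.1 FPKM against 71.8, 74.1 and 84.9 FPKM, separate but short of the threshold (0.18, adjusted p = 0.0592). CTSD did pass 0.05 with TPM (adjusted p = 0.0459), upper quartile scaling (0.017), voom (0.00679), protein-coding genes only (0.0258), a mean of at least 5 FPKM (0.0417) and without shNC library 3 (0.26, adjusted p = 0.00451). It shares 52.7% of its exonic bases with other genes. CTSZ was at 74.4, 70.8 and 74.2 FPKM against 68.8, 78.5 and 80.7 FPKM with overlap (-0.05, 95% interval -0.20 to 0.10), though without shNC library 1 it came to -0.12 with an adjusted p of 0.0391. CTSB, the abundant cysteine protease often studied in tumours, gave -0.07 (-0.17 to 0.03), and CTSF -0.08 (-0.20 to 0.04).

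**Figure D4:**
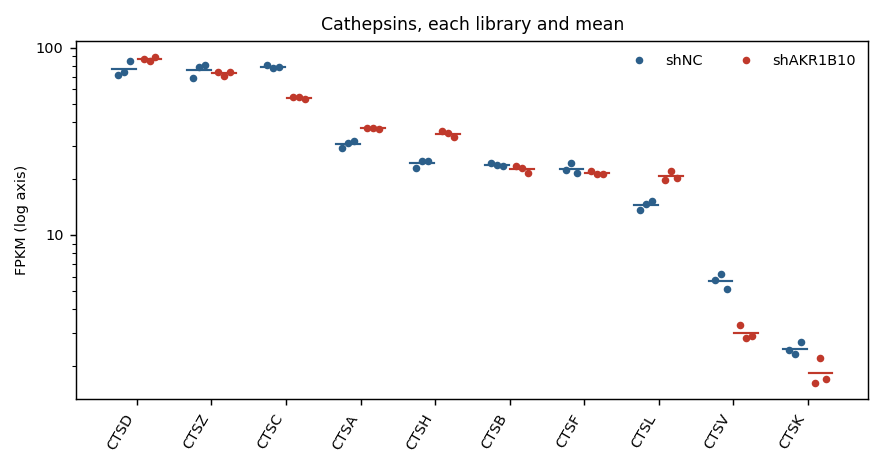
FPKM on a log axis for the 10 cathepsins tested, in order of mean level, 1 point per library (blue for shNC, red for shAKR1B10) with a bar at each group mean. CTSC and CTSV lie lower in shAKR1B10 and CTSA, CTSH and CTSL higher, while CTSZ and CTSF overlap.

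Among the LAMP genes, the main lysosomal coat proteins and LAMP3 went in different directions. LAMP1 was at 74.6, 77.0 and 77.1 FPKM in shAKR1B10 and 65.9, 63.1 and 65.9 FPKM in shNC (0.23, SE 0.0322, adjusted p = 0.00176). LAMP2, which also serves in fusion and chaperone-mediated autophagy, was at 27.6, 28.4 and 27.8 FPKM against 24.8, 24.6 and 24.2 FPKM (0.19, SE 0.0301, adjusted p = 0.00322). These were small differences with little spread. LAMP3 (ENSG00000078081, chromosome 3, 183122213 to 183163839), known from mature dendritic cells, alveolar type II cells and hypoxic tumour cells, was at 0.771, 0.784 and 0.768 FPKM against 1.43, 1.66 and 1.22 FPKM. Its log2 fold change of -0.80 (SE 0.172, adjusted p = 0.0104) rests on 52 to 54 reads in a shAKR1B10 library and 85 to 107 in a shNC library, and was -0.45 with a pseudocount of 1 FPKM in place of 0.1. LAMP3 was under the filter of 1 FPKM in every shAKR1B10 library and was tested only because of its level in shNC. LAMP5 was listed at 0 in every library, where 3 reads would be 0.0801 to 0.0869 FPKM.

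The other 17 genes below a mean of 1 FPKM were not tested. The groups did not overlap for 5 of them, 2 lower and 3 higher, beside 4.8% and 9.02% of the 18433 genes that lay below this mean and above 0 in at least 1 library. These genes were not matched to that set by level or biotype, and genes over the filter gave 29.2% and 25.5%. ATP6V0A4, a V0 subunit of acid-secreting cells, had 53, 51 and 44 reads against 39, 25 and 26, CTSE 25, 32 and 21 reads against 11, 11 and 17, and CTSO 55, 68 and 50 reads against 42, 43 and 45. ATG2B (182, 197 and 194 reads against 236, 196 and 210) and ATP6V0A2 (226, 204 and 253 reads against 274, 244 and 262) were lower in FPKM. Of the rest, ATP6V1C2 had 18 to 30 reads and shares 29.9% of its exonic bases with other genes, chiefly PDIA6, CTSS had 8 to 18, ATP6V1G2 7 to 15, ATP6V1B1 1 to 15, CTSW 0 to 8, ATP6V0D2 0 to 5 and ATP6V1G3 0 to 1. CTSG and ATP6V1G2-DDX39B were listed at 0 throughout. ATP6V1FNB, at 1.55, 1.70 and 1.82 FPKM against 1.26, 1.30 and 1.15 FPKM, passed the test (0.42, adjusted p = 0.0299), but its adjusted p was 0.0516 to 0.0972 without any 1 library other than shAKR1B10 library 1.

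The genes that act with them were counted in 9 lists of 138 genes, of which 124 were tested. At an adjusted p under 0.05, 16 of these were lower and 44 higher, beside 23.1% and 19.4% of all genes tested. Of the 124, 2 were called lower and 8 higher, beside 7.45% and 5.83%, so the calls on the higher side were near the background. The median log2 fold change was 0.10. The initiation list held calls in both directions. RB1CC1, the scaffold (FIP200) that ATG13 binds, was at 4.22, 4.78 and 4.76 FPKM against 8.50, 7.64 and 7.0 FPKM (-0.74, adjusted p = 0.000814). NRBF2, a subunit of the same kinase complex as ATG14, was at 9.20, 9.27 and 9.40 FPKM against 13.7, 14.0 and 14.2 FPKM (-0.58, adjusted p = 5.67e-05). WIPI1, which reads the lipid mark that this kinase makes, was at 1.70, 2.05 and 1.69 FPKM against 1.01, 0.869 and 0.789 FPKM (0.95, adjusted p = 0.00332). WIPI1 was the only higher call of this list. It averaged 0.889 FPKM in shNC and 1.81 FPKM in shAKR1B10, so it passed the filter of 1 FPKM only through shAKR1B10. It shares 28.1% of its exonic bases with other genes, chiefly ARSG on the opposite strand. Of the 16 initiation genes tested, 2 were lower and 4 higher at an adjusted p under 0.05. The median was -0.06, and 11 lay below 0, beside 6784 of the 13150 genes tested. With voom 5 were lower, ULK1 (adjusted p = 0.0467), ULK2 (0.031) and VMP1 (0.0412) being added, and 4 higher. All genes tested gave 26.1% lower and 21.8% higher with voom. The other alternatives gave 2 to 3 lower and 2 to 4 higher initiation genes.

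Of the 6 transcription factors tested, TFEB was at 2.25, 1.92 and 1.99 FPKM against 1.39, 1.18 and 1.36 FPKM (0.61, adjusted p = 0.00654), and MITF at 8.60, 8.86 and 8.63 FPKM against 6.42, 6.17 and 5.81 FPKM (0.498, adjusted p = 0.000416, just inside the threshold and called by voom). The other 4 did not pass the test. Lysosomal hydrolases and their activators formed the list with the largest number of differences. Of 33 tested, 18 were higher and 7 lower at an adjusted p under 0.05, beside 19.4% and 23.1% of all genes tested, so the share of lower genes was near the background. The median was 0.18, and 4 were called, all higher. IDUA, which cleaves heparan and dermatan sulphate, was at 7.85, 7.84 and 8.18 FPKM against 3.62, 4.46 and 3.62 FPKM (1.02, adjusted p = 0.000235), with 13.4% of its bases shared with SLC26A1 on the opposite strand. Acid ceramidase, ASAH1, was at 12.7, 12.1 and 11.8 FPKM against 7.35, 6.69 and 6.55 FPKM (0.82, adjusted p = 9.76e-05), and MANBA, the beta-mannosidase, at 5.10, 4.97 and 5.21 FPKM against 2.89, 3.05 and 2.92 FPKM (0.77, adjusted p = 9.21e-05). On the lower side, GLA, the alpha-galactosidase, came closest to a call, at 17.7, 18.2 and 18.5 FPKM against 26.6, 24.8 and 24.9 FPKM (-0.49, adjusted p = 0.000206).

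The proteins that build or accompany the V-ATPase numbered 10 tested, of which 4 were higher in limma at an adjusted p under 0.05 and 0 lower, beside 19.4% and 23.1% of all genes tested (0 lower also at an unadjusted p under 0.05 and by voom). CCDC115, an assembly factor, was at 10.0, 9.01 and 9.84 FPKM against 5.68, 6.64 and 6.45 FPKM (0.61, adjusted p = 0.000905), and the accessory subunit ATP6AP1 at 64.5, 64.3 and 65.9 FPKM against 48.4, 49.0 and 50.3 FPKM (0.40, adjusted p = 0.000135). Of 18 genes for lysosomal membrane proteins and sorting receptors, 6 were higher and 2 lower, beside the same shares. Of the 3 cysteine cathepsin inhibitors tested, CST6, a secreted cystatin that blocks cathepsins L and V, was called higher (55.4, 49.9 and 51.9 against 32.0, 35.6 and 28.9 FPKM, log2 fold change 0.71, adjusted p = 0.00071), and 2 were higher at an adjusted p under 0.05.

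The genes that bring the autophagosome to the lysosome came next. Of 14 tethering and fusion genes tested, 5 were lower and 3 higher at an adjusted p under 0.05 (all genes tested, 23.1% and 19.4%), with no call, and the median was -0.0018. With the replicate block the higher SNAP29 (adjusted p = 0.0751) and PLEKHM1 (0.0861) and the lower YKT6 (0.0953) did not pass. YKT6 also failed with TPM (0.17) and upper quartile scaling (0.211), where TECPR1 came under 0.05 as higher (0.0481 with upper quartile scaling only). STX17, the SNARE of the autophagosome, was at 4.25, 4.03 and 3.79 FPKM against 5.48, 5.08 and 5.25 FPKM (-0.38, adjusted p = 0.00303). RAB7A, the GTPase of late endosomes and lysosomes, was at 106, 109 and 110 FPKM against 135, 133 and 135 FPKM (-0.31, adjusted p = 0.000321). Cargo receptors had 4 of 13 higher and 0 lower in limma (1 lower at an unadjusted p under 0.05, 0 by voom), with NCOA4, the receptor for ferritin, at 152, 155 and 147 FPKM against 131, 120 and 124 FPKM (0.28, adjusted p = 0.00267), and lysosomal nutrient sensing had 1 of 11 higher (2 by voom). The lists differ in size and were not tested against each other.

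**Figure D5:**
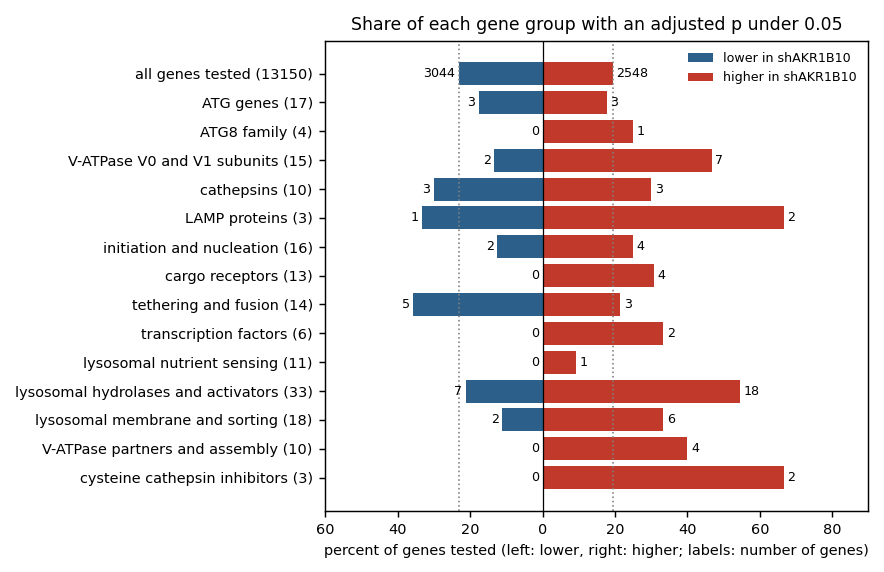
Share of the genes tested in each group that had an adjusted p under 0.05 (horizontal axis, percent), to the left for lower and to the right for higher in shAKR1B10, with the number of genes at the bar ends and the number tested in brackets. Dotted lines mark all genes tested, 23.1% lower and 19.4% higher; the V-ATPase (2 lower, 7 higher) and the hydrolases (7 lower, 18 higher) reach further right, and tethering and fusion (5 lower, 3 higher) further left.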

How the data were processed

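RNA-seq libraries of PC9-BrM3 cells (3 shAKR1B10, 3 shNC) were grouped by their labels. According to the supplementary methods and the submitters' processing notes, mRNA was selected with poly-T beads, aligned with HISAT2 2.0.5 and counted with featureCounts 1.5.0-p3. The authors deposited FPKM values with gene lengths, positions and biotypes, and positions of all 68 genes equal those of GENCODE 29 (GRCh38). Strand use and the treatment of overlapping genes are not given in the sources used here. Unlike the authors, who ran DESeq2 on counts, log2(FPKM + 0.1) was compared with limma 3.58.1 (R 4.3.3, eBayes with a trend) over the 13150 genes averaging 1 FPKM or more, with Benjamini-Hochberg adjustment over all of them. Fold changes of low genes are understated on this scale. Reads were recovered from FPKM and gene length, 100% whole within 0.01 read in each library, and served for limma's voom as an alternative. At this depth 3 reads are 0.163 to 0.177 FPKM for a gene of 1000 bases, which covers counting error only. The test was checked on simulated data.

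The members and the gene lists were chosen with earlier results of these data known. Named were called members, the 3 highest and 2 lowest fold changes and the 2 most abundant genes of each role, all ATG8 and LAMP genes, members under the filter, and the 3 lowest and 3 highest called genes of each list. Other members, and MITF, GLA, ATP6AP1, STX17, RAB7A and NCOA4, were chosen after their values were seen. Alternatives were pseudocounts of 1 and 0.01, other filters, TPM and upper quartile scaling, voom, protein-coding genes only, a threshold of 1, the replicate number as a block, and each library left out. Exonic overlaps came from GENCODE 29 and promoters from RefSeq, 1 per symbol, read in Python 3.11.15 with pandas 2.3.3.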

Additional observations from a re-analysis of the deposited data

How the results depend on the processing

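All 11 calls were kept with a pseudocount of 0.01, without a filter, with voom, among protein-coding genes only and with a replicate block. The replicate numbers did not pair the libraries (correlations of their deviations -0.0155, 0.00388 and 0.00383), and the replicate block gave 6 members called lower and 5 higher, with 7 lower and 17 higher at an adjusted p under 0.05, where CTSD (0.0472) and ATG4D (0.0261) came under 0.05 and ATG4B (0.0875), ATP6V1E2 (0.0705), CTSK (0.082) and ATP6V1FNB (0.075) did not stay under it. A mean FPKM of at least 5 left 3 called lower, and 4 lower at an adjusted p under 0.05, because ATG4C, LAMP3 and CTSV, and for the adjusted p also CTSK and ATP6V1E2, fell under the filter. A pseudocount of 1 left 3 called higher, and a threshold of 1 left 0 in either direction with limma, where 9 and 17 passed the adjusted p alone. Leaving out 1 library gave 5 to 8 called lower and 3 to 5 called higher, with 3 without shAKR1B10 library 1 (ATP6V1G1 and CTSH lost) and 3 without shNC library 1 (CTSH and CTSL lost). Over the same alternatives, applied to group counts after seeing the data, 5 to 9 V-ATPase subunits were higher and 1 to 2 lower at an adjusted p under 0.05, and 15 to 22 hydrolases were higher and 5 to 8 lower. Of all genes tested, 7.1% (without a filter) to 24.9% (upper quartile scaling) were then higher and 8.37% (without a filter) to 30.2% (mean FPKM of at least 5) lower. The highest counts, 9 subunits and 22 hydrolases, came with TPM (22.1% of all genes higher) and upper quartile scaling, and 9 subunits also among protein-coding genes only (23.2%). Upper quartile scaling moved the median of all genes from -0.01 to 0.05. Genes near 0 changed sign, none of them called. ATG16L1 came to 0.021 with TPM, 0.042 with upper quartile scaling, and -0.037 to 0.0063 with 1 library left out (above 0 without shAKR1B10 library 1). ATG9A came to 0.0075 with upper quartile scaling and -0.128 to 0.011 with 1 library left out (above 0 without shNC library 3), and CTSZ to 0.0065 with upper quartile scaling. With 1 library left out, GABARAPL2 ranged from -0.010 to 0.067 (below 0 without shAKR1B10 library 1 or shNC library 3) and ATP6V1D from -0.032 to 0.091 (below 0 without shAKR1B10 or shNC library 3). LAMP3, CTSK and GABARAP rest on few reads, as do the genes under 1 FPKM.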
